A study of Homo sapiens with 3 samples.

Results

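The experiment described here compared the human bladder cancer cell line UM-UC-3 after treatment with the WDR5 siRNA si-WDR5-2 against the same cells treated with a control siRNA. Its members are 2 of the 3 arrays of the series, chosen by their labels, and 11501 of the 18155 genes with a probe set of their own were bright enough to be described. Each siRNA was transfected at 75 nM and RNA was taken 48 h later. One Affymetrix PrimeView array was hybridised per condition, namely si-WDR5-2, a second WDR5 siRNA named si-WDR5-3 and control siRNA, so no condition had a replicate and the spread between cultures is unknown. All values below are from 1 cell line after short-term transfection. The question behind the comparison was which mRNAs depend on WDR5 in bladder cancer cells.

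WDR5 is a WD-repeat protein that holds together the MLL/SET1 complexes, the enzymes that methylate lysine 4 of histone H3 at active promoters. It also belongs to the NSL acetyltransferase complex. An siRNA is a short RNA duplex whose guide strand, loaded into Argonaute, cleaves a matching mRNA, and the bases near the 5′ end of the guide, its seed, can also pair with other mRNAs in the way a microRNA does. Double-stranded RNA in the cytoplasm can itself be sensed by RIG-I (gene RIGI), MDA5 (gene IFIH1), PKR (gene EIF2AK2) and the OAS enzymes. Of these, RIG-I and MDA5 set off production of type I interferon and of interferon-induced genes.

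The siRNA sequences are shown because everything below is a comparison of transfected duplexes. In each sense strand, read 5′ to 3′ from the sample labels, the capitals mark the overhang outside the paired stretch of 19 bases, and in each guide strand, the reverse complement of that stretch, the capitals mark the seed (bases 2 to 8).
si-WDR5-2 sense: gcucagaggauaaccuuguTT
si-WDR5-2 guide: aCAAGGUUauccucugagc
si-WDR5-3 sense: cccaguccaaccuuauuguTT
si-WDR5-3 guide: aCAAUAAGguuggacuggg
control siRNA sense: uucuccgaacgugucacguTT
control siRNA guide: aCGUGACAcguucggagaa
The labels give position 999 for the WDR5 target of si-WDR5-2 and position 585 for that of si-WDR5-3, and WDR5 lies on chromosome 9. None of the 3 seeds was the seed of any of the 2370 mature human miRNAs in RefSeq (0 matches each). Pairing of the seeds with mRNAs was not analysed here.

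WDR5 itself was the gene that fell most. Its 2 probe sets had intensities of 204 and 218 on the si-WDR5-2 array, against 1013 and 947 on the control array. The ratios were 0.201 and 0.231, with a median of 0.215, and WDR5 was the only 1 of 11501 genes lower by 4 times or more. The ratio with si-WDR5-3 was 0.317. A further probe set, which the study lists under WDR5 and a second symbol, is outside the gene values. It was at 0.277 times with si-WDR5-2, and the study lists it about as low with si-WDR5-3. The labels give relative WDR5 levels of 0.06 for the si-WDR5-2 cells and 0.14 for those given si-WDR5-3, both below the array ratios.

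Intensities are the linear values the authors deposited for probe sets, groups of short probes that together read 1 transcript, and a gene can have several. A gene was described when a probe set reached a mean intensity of 152 over the 3 arrays, the median of all 49293 probe sets, and its value is the median log2 ratio to the control array over such probe sets. For each named gene the intensities printed are those of its brightest probe set, and the range in parentheses is that of the ratios over its probe sets, a spread of probes rather than of cultures. An induced gene can pass this filter through the si-WDR5-2 array itself. The array medians were 149.9 with si-WDR5-2, 151 with si-WDR5-3 and 151 with control siRNA. In bulk RNA, fewer cells of a kind and less RNA per cell cannot be told apart.

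Across all 11501 genes the median log2 ratio was -0.02, with an SD of 0.35 (0.26 with si-WDR5-3). With si-WDR5-2, 575 genes were at least 1.5 times control (5.00% of genes) and 385 were at or below 1/1.5 times control (3.35%). At 2 times, 168 genes were higher (1.46%) and 77 lower (0.670%). With si-WDR5-3 against the same control array, 269 genes were higher (2.34%) and 181 lower (1.57%) by 1.5 times or more, and 37 higher (0.322%) and 36 lower (0.313%) by 2 times or more. Below, "higher" and "lower" without a number mean past the ratio of 1.5, and no p-value is given because 1 array per side allows none. Of the 575 higher genes, 285 had several probe sets and 167 of these were past the ratio with every one. Of the 385 lower genes, 193 had several and 108 were past it with every one.

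The share of genes past the ratio grew with brightness. With genes cut into 4 bins of like size by level, in the dimmest bin 2.82% were higher and 1.15% lower, and in the brightest bin 7.10% were higher and 5.84% lower. No intensity lay below 45.5.

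**Figure D1:**
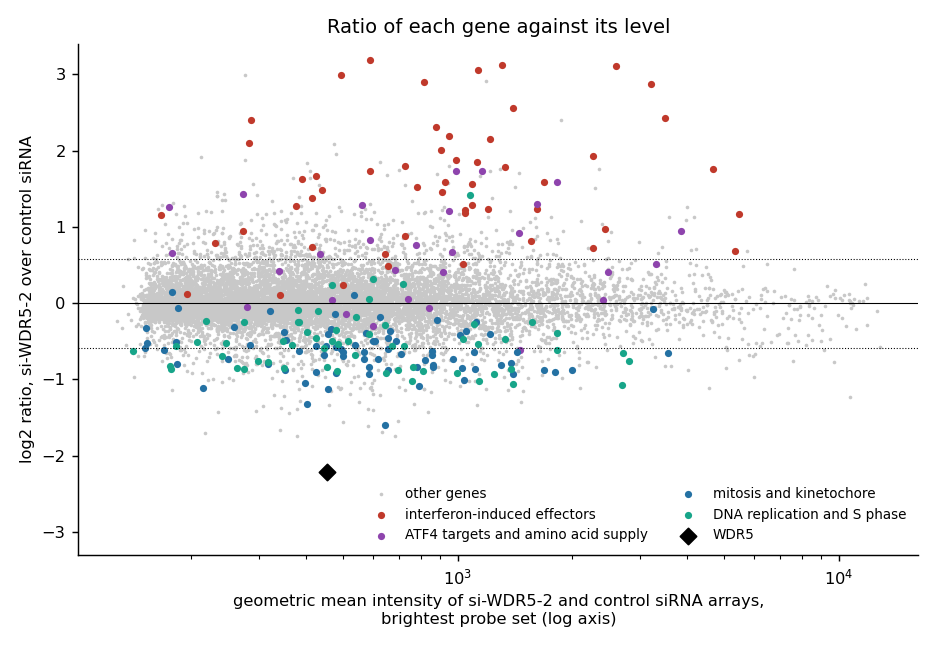
Each point is 1 of 11501 genes, with the geometric mean intensity of its brightest probe set on the si-WDR5-2 and control arrays on the horizontal log axis and its log2 ratio, si-WDR5-2 over control siRNA, on the vertical axis; dotted lines mark ratios of 1.5 and 1/1.5. The interferon-induced effectors lie above 0 at all levels (median 1.56), the mitosis genes (median -0.64) and replication genes (median -0.56) mostly below it, and WDR5 is the lowest point at -2.22.

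Most of the largest rises were of interferon-induced genes. Of the 19 genes at 4 times control or more, 18 belonged to lists of interferon, antigen presentation and cytokine genes, and the remaining one was CLDN1, a claudin of tight junctions. Probe sets with several gene symbols are outside this count. The highest of them was at 7.42 times control, and the study lists a probe set with this ratio as CBS. Of the 168 genes at 2 times or more, 53 came from those lists, which hold 118 of the genes measured. Of the 19 genes at 4 times or more, CMPK2, CXCL10, EPSTI1 and RSAD2 passed the filter through the si-WDR5-2 array alone. With the same minimum set on the si-WDR5-3 and control arrays, a choice made after seeing the data, 16 genes were at 4 times or more and 15 of them were on those lists.

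GBP1, an interferon-induced GTPase, had an intensity of 1833 with si-WDR5-2, 170.2 with si-WDR5-3 and 189 with control siRNA, and its 5 probe sets gave 9.14 times control (8.61 to 9.68). IFITM1, a membrane protein that restricts virus entry, had 7729.6 with si-WDR5-2, 391 with si-WDR5-3 and 872 with control siRNA, or 8.66 times control (8.45 to 8.87). BST2, or tetherin, which holds budding virions at the cell surface, had 3102, 274 and 413 in the same order, or 8.30 times control (7.51 to 8.43). In each of these genes the si-WDR5-2 array stood far above the other arrays and si-WDR5-3 lay below control.

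IFI27 reached 8752 with si-WDR5-2, against 412 with si-WDR5-3 and 1176 with control siRNA, 7.35 times control (7.26 to 7.44). The chemokine CCL5, which draws T cells, reached 4062 with si-WDR5-2, against 331 with si-WDR5-3 and 347 with control siRNA, and its 3 probe sets gave 7.51 times control (7.46 to 11.7). RSAD2, or viperin, was at 5.28 times control (3.50 to 7.96) from an intensity of 535 with si-WDR5-2 and 153 with control siRNA. The other genes with several probe sets among the 15 largest rises were RIGI (5.28 times), XAF1 (4.98), TRIM22 (4.57), IFI35 (4.43), CLDN1 (4.26), CASP1 (3.76), OAS1 (3.67), IFI16 (3.62) and OAS2 (3.47). Their probe sets did not all give the same size of rise: TRIM22 ran from 1.76 to 8.21 times and OAS2 from 2.10 to 7.13 times, all above the ratio of 1.5. CASP1 passed the filter through the si-WDR5-2 array alone, and with its dim probe sets taken in its ratio was 1.95. With dim probe sets taken in, TRIM22 was at 3.03 times and CLDN1 at 2.80 times.

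Among genes with 1 probe set above the filter, IFIT2, which binds RNA and limits translation, was highest at 8.72 times control. It had 3859.6 on the si-WDR5-2 array, 267 on the si-WDR5-3 array and 443 on the control array. With its dim probe set included its ratio was 5.06. The next were CMPK2 (7.98 times), CXCL10 (7.95), OASL (7.47) and IFIT3 (5.90). The chemokine CXCL10 had 780.0 with si-WDR5-2 and 98.1 with control siRNA. With all probe sets of CMPK2 taken in, dim ones too, its ratio was 1.14, so its rise rests on 1 of 3 probe sets.

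**Figure D2:**
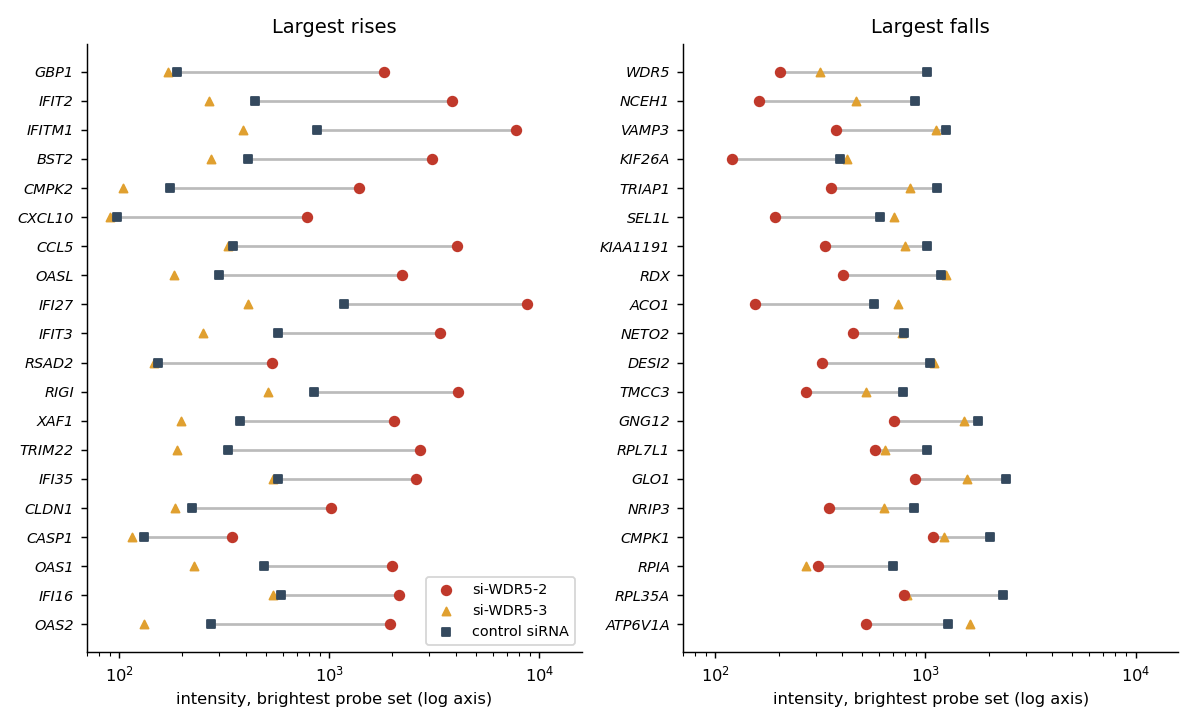
Intensity of the brightest probe set (log axis) on the si-WDR5-2 array (red circles), the si-WDR5-3 array (yellow triangles) and the control array (dark squares) for 20 rises and 20 falls, in each case the 15 largest among genes with every one of several probe sets past the ratio and the 5 largest among genes with 1 probe set above the filter. Grey lines join si-WDR5-2 and control. On the left the triangles lie below the squares, as for IFITM1 (391 against 872), and on the right they scatter, near control for RDX (1254 against 1190.0) and near si-WDR5-2 for RPIA (270.1 against 307).

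As a list, 48 of 53 interferon-induced effectors were higher with si-WDR5-2 and 0 lower, with a median log2 ratio of 1.56, beside -0.02 for all genes and 5.00% higher among them. With si-WDR5-3 against the same control array, 0 of the 53 were higher and 16 lower, with a median of -0.32. All 53 had ratios above 1 with si-WDR5-2, the lowest being PML, a nuclear body protein, at 1.07. With the minimum on the si-WDR5-3 and control arrays, 45 of 49 effectors were higher and 0 lower. By role, 10 of 12 RNA-binding and translation factors, 7 of 7 membrane and entry factors, 2 of 3 GTPases, 5 of 5 members of the ISG15 pathway and 24 of 26 others were higher. ISG15, a ubiquitin-like modifier, had 8601 with si-WDR5-2, 1203 with si-WDR5-3 and 2544 with control siRNA, 3.38 times control. HERC5, its ligase, was at 4.02 times and UBE2L6, its conjugating enzyme, at 3.81 times. IFITM1 stood apart from its neighbours IFITM2 (1.65 times) and IFITM3 (1.60 times), whose sequences are so alike that probes may read more than 1 of them.

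The sensors of double-stranded RNA were higher and their adaptors mostly not. Of 7 sensors 5 were higher, with a median log2 ratio of 1.73, and of 10 adaptors and kinases 1 was higher, with a median of 0.30. RIGI had 4109.7 with si-WDR5-2, 513 with si-WDR5-3 and 847 with control siRNA, 5.28 times control (4.85 to 5.52). IFIH1 was at 3.32 times, or 2.26 times with its dim probe set included, and OAS1 at 3.67 times. EIF2AK2, which phosphorylates eIF2alpha, was at 1.76 times, while OAS3 was at 1.09 times. IRF7, the transcription factor that amplifies type I interferon, was the adaptor-side exception at 3.48 times, with 1773 with si-WDR5-2 and 509 with control siRNA. The adaptor MAVS was at 1.02 times, the kinase TBK1 at 1.09 times and IRF3 at 1.24 times.

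Of 15 interferon receptors and JAK-STAT factors 1 was higher and 2 lower, with a median log2 ratio of 0.12. None of 5 receptors passed the ratio (0 higher, 0 lower), with ratios from 0.92 for the receptor chains IFNAR1 and IFNAR2 to 1.14 for IFNGR1. IRF9, the DNA-binding part of the ISGF3 complex, was at 1.89 times control (1.66 to 2.05), with 2449.8 on the si-WDR5-2 array and 1194 on the control array. The kinase JAK1 was lower at 0.643 times (0.621 to 0.667) and SOCS3, a feedback inhibitor, at 0.656 times, or 0.771 times with its dim probe sets included. IRF1 had a ratio of 1.44 (1.38 to 1.51), below the ratio of 1.5.

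The interferon genes themselves were dim. Of 17 measured, 16 lay below the filter, and IFNG, the only one above it, had a ratio of 1.01 (168 with si-WDR5-2 and 166 with control siRNA). IFNB1, encoding interferon beta, had 213 with si-WDR5-2, 108 with si-WDR5-3 and 109.5 with control siRNA, 1.94 times control, and was the only 1 of the 16 past the ratio. The 11 interferon alpha genes had ratios from 0.901 to 1.05. IFNL1, a type III interferon, was at 1.26 times with intensities of 98.9 and 78.8 on the si-WDR5-2 and control arrays.

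Antigen presentation by MHC class I moved the same way. Of 18 genes, 11 were higher with si-WDR5-2 and 0 lower, with a median log2 ratio of 1.07, and with si-WDR5-3 0 were higher and 1 lower, with a median of -0.11. NLRC5, the transactivator of MHC class I genes, had 531 with si-WDR5-2, 141 with si-WDR5-3 and 144 with control siRNA, 3.68 times control. NLRC5 passed the filter through the si-WDR5-2 array alone and was at 2.22 times with its dim probe set included. The immunoproteasome subunits PSMB9 (3.38 times) and PSMB8 (3.19 times, with 1 of 3 probe sets at 0.971) and the peptide transporter TAP1 (3.27 times) supply peptides to these molecules. Among the class I heavy chains HLA-F was at 3.62 times, HLA-E at 2.86, HLA-B at 2.40 and HLA-C at 2.20, and these genes share enough sequence that their probes may not tell them apart fully. HLA-F is less certain, since its 6 probe sets ran from 1.32 to 4.80 times and its ratio with dim probe sets included was 1.33. The light chain B2M, bright on every array (8999 with si-WDR5-2, 5795 with si-WDR5-3, 6484 with control siRNA), was at 1.37 times.

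Chemokines did not move as a group. Of 19 chemokine and cytokine genes 3 were higher and 1 lower, with a median log2 ratio of -0.03. CCL5 and CXCL10 are given above, and IL18, an inflammasome cytokine, was at 1.62 times. CCL2, which draws monocytes, was lower, with 490.3 with si-WDR5-2, 777 with si-WDR5-3 and 1076 with control siRNA, 0.456 times control. The NF-kappaB list was balanced, with 1 of 20 higher and 3 lower and a median of 0.01, while with si-WDR5-3 0 were higher and 6 lower. NFKBIZ, an atypical inhibitor, was at 2.13 times with si-WDR5-2, whereas its ratio for si-WDR5-3 was 0.653. NFKBIA, the classical inhibitor and itself a target, was at 0.666 times on the si-WDR5-2 array and 0.465 times on the other, and PLAU, the urokinase, at 0.512 and 0.585 times.

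Of the genes higher with si-WDR5-2, several stood next to each other on the chromosome. Among 11464 pairs of neighbouring measured genes, both members were higher in 58 (0.506%) and both lower in 13 (0.113%). Of single genes 5.00% were higher and 3.35% lower. Some pairs would move together without any link, and their number was not computed. There were 10 runs of 3 or more higher genes and 0 runs of lower ones. The longest, on chromosome 10, was LIPA, IFIT2, IFIT3, IFIT1 and IFIT5, from 1.62 to 8.72 times. Chromosome 6 held TAP2, PSMB8, TAP1 and PSMB9 in a row (1.72 to 3.38 times), chromosome 3 PARP9, DTX3L and PARP14 (2.34 to 3.00 times) and chromosome 11 the IFITM genes. Neighbours of 1 family can share probes. The other runs included CAV1, CAV2 and TES on chromosome 7 (1.52 to 1.65 times), which are not interferon genes by the lists used here.

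Promoters are shown next because an element through which interferon can act is common in the effector and MHC class I lists. Most of the genes that rose did not hold it, and whether it took part in any rise was not tested. The lists are of genes known to respond to interferon, so their own shares are largely fixed by that choice. The interferon-stimulated response element (ISRE), the site of ISGF3 and of IRF factors, was searched as GAAA, any 2 bases and GAAA on both strands from 250 bases before to 50 after the RefSeq start (GRCh38.p14). It was present in 2.74% of 9368 promoters of measured genes and in 3.65% of 27305 promoters in all. Among genes higher with si-WDR5-2 it was present in 10.4% of 488 promoters, among those at 2 times or more in 23.8% of 147, among those at 4 times or more in 60% of 15, and among lower genes in 1.27% of 314. The higher sets hold members of the interferon lists, 18 of the 19 genes at 4 times or more, so their shares are not separate from that choice. Some of these genes passed the filter through the si-WDR5-2 array alone, and the shares were not recomputed without them. Of the interferon-induced effectors 29 of 45 promoters (64.4%) held it, and of the MHC class I list 9 of 16 (56.2%). In choosing stretches to print, genes on a single chromosome were left out, so a larger rise there would not be shown. The stretches of 60 bases below are from the other effectors and MHC class I genes with the largest rises whose upstream promoter held a match. Matches are in capitals and each stretch is read 5′ to 3′ on the strand of its gene.
GBP1, chr1:89065301-89065360, minus strand: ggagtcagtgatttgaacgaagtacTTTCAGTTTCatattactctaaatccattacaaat
IFITM1, chr11:313975-314034, plus strand: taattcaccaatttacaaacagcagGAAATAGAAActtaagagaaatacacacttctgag
BST2, chr19:17405726-17405785, minus strand: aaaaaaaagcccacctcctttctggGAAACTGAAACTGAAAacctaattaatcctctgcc
IFI27, chr14:94110603-94110662, plus strand: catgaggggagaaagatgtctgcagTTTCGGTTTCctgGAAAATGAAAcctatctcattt
IFIT3, chr10:89327816-89327875, plus strand: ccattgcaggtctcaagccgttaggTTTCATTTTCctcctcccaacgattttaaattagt
HLA-F, chr6:29723253-29723312, plus strand: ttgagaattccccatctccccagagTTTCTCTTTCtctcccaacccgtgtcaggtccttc
TAP1, chr6:32853804-32853863, minus strand: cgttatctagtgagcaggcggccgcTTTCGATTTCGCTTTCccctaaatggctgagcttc
BST2 and TAP1 held 2 overlapping matches each and IFI27 held 2 apart. A match describes the letters in this window and is not a measured binding site.

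Cell division genes were lower as a group. Of the 385 lower genes, 93 were among the 208 measured genes of the replication, E2F, cyclin, mitosis and recombination lists, and 1 of those 208 was higher. Mitosis and kinetochore genes had 45 of 77 lower and 0 higher, with a median log2 ratio of -0.64, beside 3.35% lower among all genes. With si-WDR5-3, 0 were higher and 2 lower, with a median of -0.19. DNA replication and S phase genes had 27 of 60 lower and 1 higher, with a median of -0.56, and with si-WDR5-3 1 was lower and 1 higher, with a median of -0.05.

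The mitosis list was lower in every role: 7 of 9 mitotic kinases, 14 of 25 kinetochore and centromere proteins, 6 of 8 checkpoint and APC genes, 10 of 22 spindle and cytokinesis genes and 8 of 13 condensins, cohesins and markers. OIP5, which loads the centromeric histone, fell most, with 369 with si-WDR5-2, 293 with si-WDR5-3 and 1124 with control siRNA, 0.329 times control. NCAPG, a condensin subunit, had 253 with si-WDR5-2, 588 with si-WDR5-3 and 636 with control siRNA, 0.398 times control. With its dim probe set included NCAPG was at 0.523 times. BUB1B, the checkpoint kinase BUBR1, was at 0.457 times and the kinesins KIF14 and KIF23 at 0.460 and 0.469 times. The proliferation marker MKI67 was at 0.545 times control (0.479 to 0.639 over 6 probe sets). OIP5 was thus low with both siRNAs, and NCAPG with si-WDR5-2 alone.

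In DNA replication, enzymes of nucleotide supply had 4 of 5 lower with a median log2 ratio of -0.89, helicase activation 4 of 8 (-0.63), fork and chromatin factors 6 of 10 (-0.62), origin licensing 5 of 16 (-0.49) and DNA synthesis 8 of 21 (-0.46). TYMS, thymidylate synthase, had 1913 with si-WDR5-2, 3781 with si-WDR5-3 and 3797 with control siRNA, 0.475 times control (0.448 to 0.504). FEN1, the flap endonuclease of Okazaki fragments, was at 0.478 times, RRM1, a ribonucleotide reductase subunit, at 0.492 times, the helicase subunit MCM4 at 0.492 times and GINS1 at 0.523 times, or 0.855 times with its dim probe sets included. POLD4, the small subunit of DNA polymerase delta, went the other way, with 1758 with si-WDR5-2, 1034 with si-WDR5-3 and 658 with control siRNA, 2.67 times control (2.65 to 2.67). E2F1 itself had a ratio of 0.829, and of 12 E2F and retinoblastoma genes 2 were lower, E2F2 (0.642 times) and E2F8 (0.656 times), and 0 higher. With dim probe sets included E2F2 was at 0.796 times and E2F8 at 0.772 times.

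Of 34 cyclins, CDKs and CDK inhibitors, 11 were lower and 0 higher, with a median log2 ratio of -0.40. The cyclins of the G1/S step, CCNE1 and CCNE2, were both lower. CCNE1 had 259.7 with si-WDR5-2, 299 with si-WDR5-3 and 567 with control siRNA, 0.458 times control. CCNE2 had 247 with si-WDR5-2, 374 with si-WDR5-3 and 604 with control siRNA, 0.409 times control. A dimmer probe set of each had ratios of 0.826 for CCNE1 and 0.671 for CCNE2. The mitotic cyclin CCNB1 had 721 with si-WDR5-2, 923 with si-WDR5-3 and 1138 with control siRNA, 0.634 times control. CDK1 was at 0.490 times, its partner CKS1B at 0.458 times and the G1 kinase CDK6 at 0.501 times, whereas CDK6 had a ratio of 1.15 with si-WDR5-3. The kinase gene UHMK1, which acts on the inhibitor p27, had 156 with si-WDR5-2, 137 with si-WDR5-3 and 313 with control siRNA, 0.498 times control, and a dimmer probe set was at 0.861 times. The inhibitor CDKN1A (p21) was lower too, at 0.584 times (0.580 to 0.588), with 1659 with si-WDR5-2, 1198 with si-WDR5-3 and 2862 with control siRNA. CCND1 had a ratio of 0.889 and CCNH of 0.721.

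Of 25 genes of homologous recombination and Fanconi repair, 8 were lower and 0 higher, with a median of -0.34. FANCI, a subunit of the complex that marks crosslinked DNA, and UBE2T, the conjugating enzyme of the Fanconi pathway, were both at 0.59 times control.

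The promoters of the lower groups were searched in the same way. The cell cycle homology region (CHR), the site of the DREAM and MuvB complexes, was searched as TTTGAA and TTCGAA, and the E2F site as TTTGGCGC, TTTCCCGC, TTTCGCGC and TTTGCCGC, on both strands. None of these motifs contains another, although matches of 2 motifs may overlap. A CHR was present in 11.3% of promoters of measured genes, 19.7% of those of lower genes, 10.7% of those of higher genes and 73.4% of those of the mitosis list (47 of 64), beside 25.9% of the cyclin list, 11.1% of the interferon-induced effectors and 7.55% of the replication list. An E2F site was present in 5.43% of promoters of measured genes, 13.4% of those of lower genes, 3.07% of those of higher genes and 39.6% of those of the replication list (21 of 53), beside 11.1% of the interferon-induced effectors, 9.38% of the mitosis list and 7.41% of the cyclin list. Over all 27305 promoters the shares were 16.6% for the CHR and 3.325% for the E2F site. Of the 385 lower genes, 93 were on the cell division lists, so the shares of lower genes are not separate from the choice of lists. No difference between these shares was tested. In choosing stretches, genes on a single chromosome were again left out, so a larger fall there would not be shown. The stretches below are from the other mitosis and replication genes with the largest falls whose upstream promoter held a match, with the CHR or the E2F site in capitals.
NCAPG (CHR), chr4:17810917-17810976, plus strand: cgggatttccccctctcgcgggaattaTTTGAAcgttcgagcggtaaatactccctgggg
BUB1B (CHR), chr15:40161009-40161068, plus strand: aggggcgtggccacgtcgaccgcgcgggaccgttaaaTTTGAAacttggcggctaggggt
KIF23 (CHR), chr15:69414267-69414326, plus strand: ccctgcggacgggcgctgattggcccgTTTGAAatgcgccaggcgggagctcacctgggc
TYMS (E2F), chr18:657588-657647, plus strand: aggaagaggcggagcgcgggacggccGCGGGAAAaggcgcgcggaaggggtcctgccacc
RFC3 (E2F), chr13:33818068-33818127, plus strand: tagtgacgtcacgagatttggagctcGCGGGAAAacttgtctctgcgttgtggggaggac
UHRF1 (E2F), chr19:4909441-4909500, plus strand: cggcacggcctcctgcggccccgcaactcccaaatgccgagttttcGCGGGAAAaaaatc
The CHR lay within 60 bases of the start in these 3 genes, and the E2F sites read GCGGGAAA, the reverse complement of TTTCCCGC, in these 3. The lists were made of genes known for their roles in division, so these shares describe the lists and do not by themselves tie the motifs to the siRNA.

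**Figure D3:**
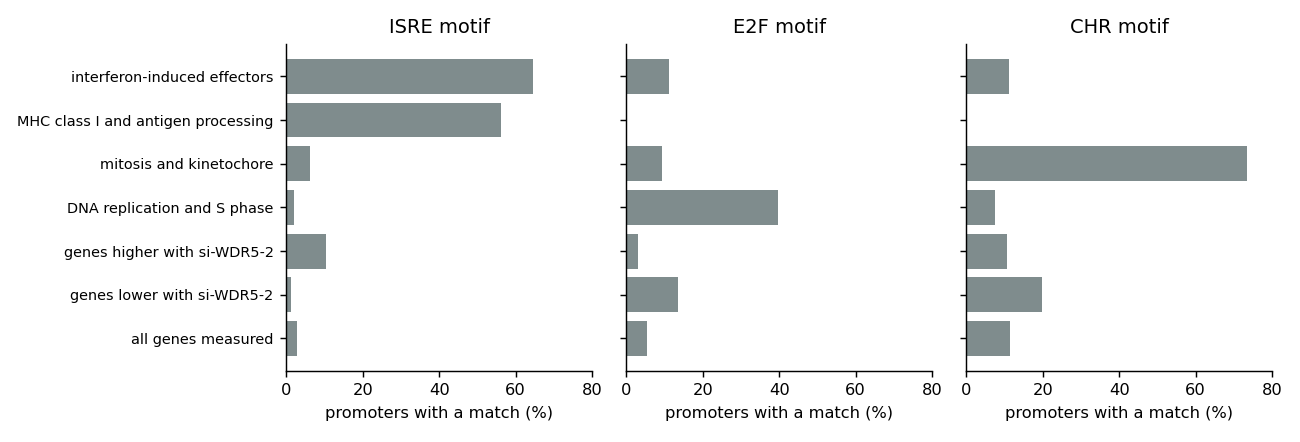
Share of 300-base RefSeq promoters holding an ISRE, an E2F site or a CHR (horizontal axes, percent) in 4 gene lists, in the genes higher and lower with si-WDR5-2 and in all genes measured. The ISRE bar is long for the interferon-induced effectors (64.4%) and short for lower genes (1.27%), the E2F bar is longest for replication genes (39.6%) and the CHR bar for mitosis genes (73.4%).

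Amino acid supply and the integrated stress response formed a further group of rises. ATF4 is the transcription factor made when eIF2alpha is phosphorylated, and it switches on amino acid synthesis, uptake and stress genes. Of 28 such genes 15 were higher with si-WDR5-2 and 1 lower, with a median log2 ratio of 0.65, and with si-WDR5-3 2 were higher and 0 lower, with a median of 0.05. By role, 6 of 11 stress factors, 5 of 9 synthesis enzymes and 4 of 8 transporters were higher. An ATF4 site, searched as TGATGCAA in the same promoters, was present in 1 of 23 promoters of this list (4.35%). Its share was 0.534% among measured genes and 1.23% among higher genes. An NF-kappaB site, also searched, was present in 4 of 17 promoters of the NF-kappaB list and 5 of 11 of the chemokine list. Its share among measured genes was 0.769%. These shares were not tested.

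ASNS, asparagine synthetase, had 3132 with si-WDR5-2, 1181 with si-WDR5-3 and 1060.0 with control siRNA, 3.00 times control (2.95 to 3.05 over 4 probe sets). SESN2, a sensor of leucine that restrains mTORC1, had 2001 with si-WDR5-2, 504 with si-WDR5-3 and 489 with control siRNA, 3.33 times control (2.72 to 4.09). DDIT4, another restraint on mTORC1, was at 3.34 times on the si-WDR5-2 array, beside 1.69 times for si-WDR5-3. In these genes the si-WDR5-2 array was highest, and only DDIT4 passed the ratio with si-WDR5-3 as well. The serine pathway enzymes PSAT1 (2.46 times) and PHGDH (2.32 times), the mitochondrial PCK2 (2.69 times), the cystine transporter SLC7A11 (2.45 times) and the factors DDIT3 (2.40 times) and ATF4 (1.92 times) were higher too. The glutamine transporter SLC38A1 was lower at 0.655 times.

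Chaperones of the endoplasmic reticulum rose in part. Of 31 genes of the unfolded protein response 7 were higher and 2 lower, with a median log2 ratio of 0.26. HSPA5, the chaperone BiP, had 5444 with si-WDR5-2, 3720.3 with si-WDR5-3 and 2904 with control siRNA, 2.13 times control over its 6 probe sets (1.29 to 2.41). The factor XBP1 was at 1.96 times and HERPUD1, of the degradation pathway, at 1.94 times. SEL1L, another degradation factor, was at 0.317 times with 192 with si-WDR5-2, 711 with si-WDR5-3 and 606 with control siRNA, but its ratio was 0.885 when its 3 dim probe sets were included. Heat shock chaperones of the cytoplasm had 0 of 25 higher and 3 lower, all 3 of them subunits of the chaperonin TRiC: CCT7 (0.506 times), TCP1 (0.59) and CCT4 (0.61).

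**Figure D4:**
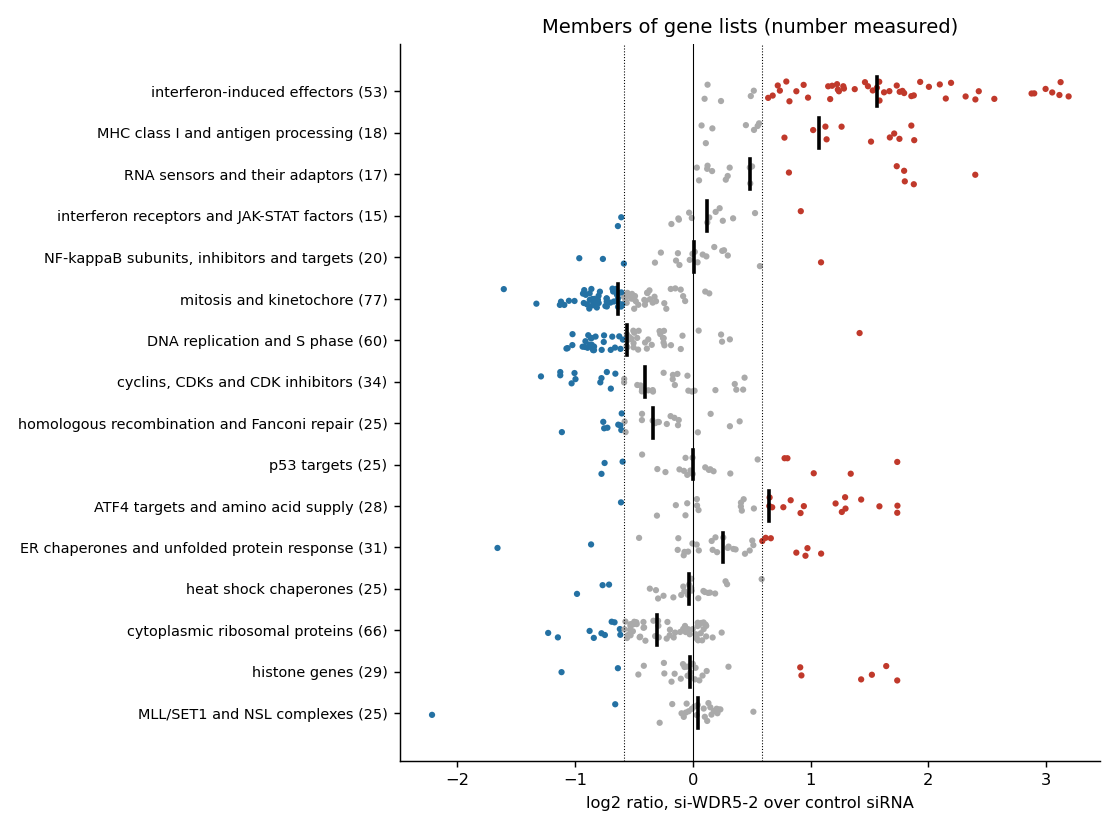
Log2 ratio, si-WDR5-2 over control siRNA, of every measured member of 16 gene lists (1 point a gene, red at or above 1.5 times control, blue at or below 1/1.5, grey between; vertical spread is for visibility); black bars are list medians and dotted lines the ratio of 1.5. Interferon-induced effectors lie to the right (48 of 53 red), mitosis genes to the left (45 of 77 blue), and the p53 targets on both sides (5 red, 3 blue of 25).

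Genes of p53 and of cell death did not move as 1 group. Of 25 p53 targets 5 were higher and 3 lower, with a median log2 ratio close to that of all genes. PMAIP1 (NOXA), a pro-apoptotic BH3 protein, had 1364 with si-WDR5-2, 469.9 with si-WDR5-3 and 655 with control siRNA, 2.04 times control (1.99 to 2.08), and was the only 1 of 14 BCL2 family genes past the ratio. PLK2 was at 2.53 times, and at 1.46 times with its dim probe sets, while CDKN1A was lower as given above and MDM2 had a ratio of 0.99.

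MCL1, the anti-apoptotic protein that NOXA binds, gave a split reading. Of its 6 probe sets 2 had ratios of 0.464 (1225 with si-WDR5-2 and 2639 with control siRNA) and 0.482 (326 and 676), and the other 4 had 0.910 to 0.949. The median over all 6 was 0.919, so MCL1 was not past the ratio by the rule used here, while its brightest probe set was. Which transcripts each probe set reads was not analysed here.

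Of the partners of WDR5 only PSIP1 was past the ratio of 1.5, and the highest ratio in their list was 1.43. Of 25 MLL/SET1 and NSL genes, WDR5 and PSIP1 (0.633 times, with probe sets at 0.421 and 0.952) were lower and 0 were higher. The core partners RBBP5, ASH2L and DPY30 had ratios of 0.960, 1.12 and 0.976, and the 6 methyltransferases ran from 0.936 for KMT2A to 1.18 for KMT2C. In the RNA interference machinery DICER1, which cuts precursors of small RNAs, was lower at 0.509 times (0.324 to 0.549), with 256 with si-WDR5-2, 717 with si-WDR5-3 and 788 with control siRNA. DROSHA was at 1.55 times and ADAR, an RNA editing enzyme that interferon induces, at 1.58 times, while AGO2, the slicer, had a ratio of 1.03.

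Histone genes went both ways, with 6 of 29 higher and 2 lower and a median log2 ratio of -0.02. The higher ones included H2BC5 (3.33 times), H1-2 (3.12 times), H2BC12 (2.87 times) and H2AC6 (2.69 times). With its dim probe set included H2BC12 was at 1.75 times. H4C3, a replication-dependent H4 gene, had 3167 with si-WDR5-2, 6555 with si-WDR5-3 and 6574 with control siRNA, 0.462 times control (0.442 to 0.482). Histone genes are near copies of each other, so probes may read more than 1.

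Ribosomal protein genes were mostly below control but short of the ratio of 1.5, with 49 of 66 below 1. Of the 66, 10 were lower (15.2%, beside 3.35% among all genes) and 0 higher with si-WDR5-2, with a median log2 ratio of -0.31. With si-WDR5-3, 7 were lower and 0 higher, with a median of -0.18. RPL35A was at 0.452 times on the si-WDR5-2 array (0.337 to 0.605), beside 0.480 times for si-WDR5-3. With its dim probe set included RPL35A was at 0.605 times on the si-WDR5-2 array. RPS14, at 0.427 times, had probe sets from 0.378 to 0.914, and the brightest, with 10222 with si-WDR5-2 and 11189 with control siRNA, changed least. The highest value on any array was 14615. Ribosome assembly factors had 1 of 36 higher, NOLC1 at 2.00 times, and 1 lower, UTP20 at 0.61 times, with a median of -0.10.

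Several lists showed no more than a few genes past the ratio. The respiratory chain had 0 of 48 higher and 1 lower, the proteasome 0 of 29 and 1, splicing factors 0 of 27 and 0, lysosome genes 0 of 22 and 1, and 12 transcripts in common use as references 0 and 0, with a median log2 ratio of -0.16. Pluripotency factors had 1 of 7 higher, KLF4, at 2.10 times (1.38 and 3.20 over 2 probe sets). SOX2 and POU5F1 had ratios of 0.992 and 0.926, and NANOG, below the filter, had 87.1 with si-WDR5-2 and 85.1 with control siRNA.

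Matrix and cytoskeleton genes went both ways. Of 47 extracellular matrix genes 8 were higher and 3 lower with si-WDR5-2, with a median log2 ratio of 0.02, and 7 were higher and 4 lower with si-WDR5-3. COL4A5, a basement membrane collagen, was at 2.26 times (2.08 to 2.46) and FN1, fibronectin, at 2.05 times (1.68 to 2.51). With its dim probe sets included FN1 was at 1.54 times. Of 31 genes of the actin cytoskeleton and adhesion 3 were higher and 1 lower, with the tropomyosins TPM4 at 3.39 times (1.98 to 3.50) and TPM2 at 2.06 times. The EGFR ligand EREG had 1589.9 with si-WDR5-2, 523 with si-WDR5-3 and 535 with control siRNA, 2.77 times control (2.59 to 2.97). The matrix protease MMP9 had 291 with si-WDR5-2, 211 with si-WDR5-3 and 855 with control siRNA, 0.340 times control. The Hippo pathway effector YAP1 had 640.5 with si-WDR5-2, 2136 with si-WDR5-3 and 1421 with control siRNA, 0.490 times control, with 6 probe sets from 0.451 to 1.06. YAP1 was thus lowest on the si-WDR5-2 array and highest on the si-WDR5-3 array.

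The largest falls after WDR5 were genes of varied function. NCEH1, which hydrolyses cholesterol esters, had 162 with si-WDR5-2, 466 with si-WDR5-3 and 888 with control siRNA, 0.298 times control (0.182 to 0.485). ACO1, the iron-regulatory protein IRP1, had 155 with si-WDR5-2, 742 with si-WDR5-3 and 568 with control siRNA, 0.376 times control (0.272 to 0.519). RDX, or radixin, which ties actin to the membrane, had 406 with si-WDR5-2, 1254 with si-WDR5-3 and 1190.0 with control siRNA, 0.341 times control (0.306 to 0.578), but 0.785 times with dim probe sets included. With dim probe sets included NCEH1 was at 0.485 times and ACO1 at 0.519 times. For ACO1 and RDX the fall was on the si-WDR5-2 array alone.

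GLO1, the glyoxalase that removes methylglyoxal, had 893 with si-WDR5-2, 1584 with si-WDR5-3 and 2404 with control siRNA, 0.406 times control (0.328 to 0.471 over 4 probe sets). ATP6V1A, the catalytic subunit of the vacuolar proton pump, had 520.3 with si-WDR5-2, 1627 with si-WDR5-3 and 1281 with control siRNA, 0.456 times control. RPIA, of the pentose phosphate pathway, had 307 with si-WDR5-2, 270.1 with si-WDR5-3 and 700.1 with control siRNA, 0.450 times control. The rest with several probe sets were NETO2 (0.379), DESI2 (0.382), TMCC3 (0.395), GNG12 (0.397), RPL7L1 (0.401), NRIP3 (0.407), CMPK1 (0.448) and RPL35A (0.452). With 1 probe set above the filter they were VAMP3 (0.299), KIF26A (0.306), TRIAP1 (0.311), SEL1L (0.317) and KIAA1191 (0.328). With its dim probe set included VAMP3 was at 0.510 times.

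The list medians are set beside those of si-WDR5-3. The 2 comparisons share the control array, so a high or low value on that array moves both, and with 1 array each the difference between the siRNAs was not tested. The median log2 ratio of the interferon-induced effectors was 1.56 for si-WDR5-2, beside -0.32 for si-WDR5-3, that of the ATF4 list 0.65 and 0.05, that of the mitosis list -0.64 and -0.19 and that of the replication list -0.56 and -0.05. The summed intensity of the 53 effectors was 125491 with si-WDR5-2, 27172 with si-WDR5-3 and 38627 with control siRNA. By the probe sets with WDR5 as their only symbol, the WDR5 level was lower with si-WDR5-2 (0.215 times) than with si-WDR5-3 (0.317 times). On the probe set that WDR5 shares with a second symbol, the study lists about the same ratio for both siRNAs. The WDR5 level and the other differences between the duplexes cannot be told apart in this design.

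**Figure D5:**
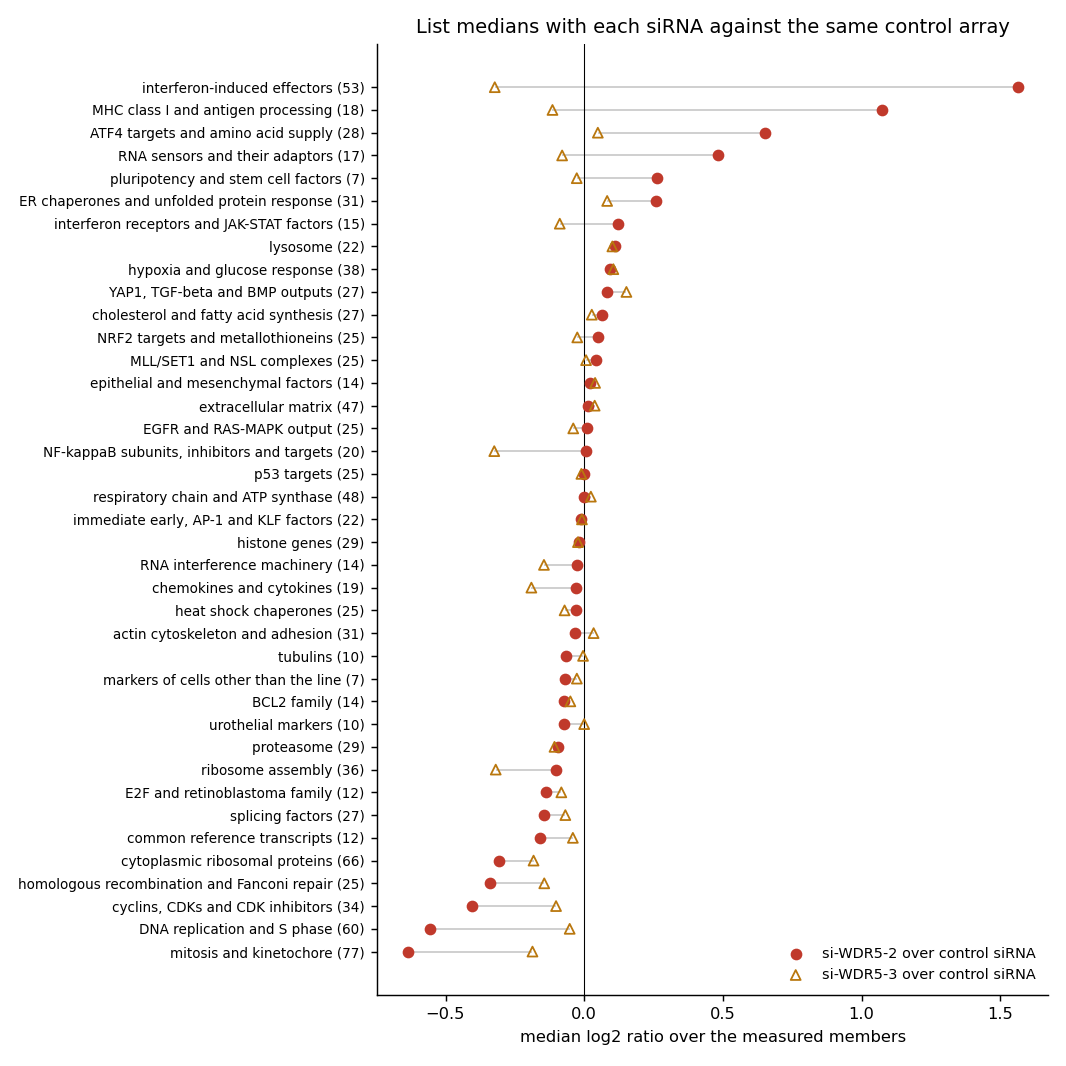
Median log2 ratio over the measured members of each of 39 gene lists (number of genes in parentheses) for si-WDR5-2 (filled circles) and si-WDR5-3 (open triangles), both over the same control array. The circles reach from -0.64 for mitosis genes to 1.56 for interferon-induced effectors, and the triangles of all lists lie between -0.32 and 0.15.

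Markers of urothelium and of other cell types were also looked at. Of 19 urothelial markers 17 had a probe set of their own, 10 passed the filter and 0 were past the ratio. KRT18 and CD44 were bright (1408 and 4029 with si-WDR5-2, 1968 and 4282 with control siRNA), while UPK1B (218 and 235) and KRT5 (257 and 276) were dimmer, above the filter intensity of 152. Of 16 markers of leukocytes, endothelium and muscle, 15 had a probe set of their own and 7 passed the filter. Their summed intensity was 2371 with si-WDR5-2, 1968 with si-WDR5-3 and 2044 with control siRNA. Of all genes 11501 of 18155 passed, so passing the filter does not check the label of the cells. CD68, a lysosomal protein of macrophages, was at 1.66 times, and CD3E and CD8A, of T cells, had ratios of 0.897 and 1.03.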

How the data were processed

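Total RNA of 3 UM-UC-3 cultures was hybridised to 1 Affymetrix PrimeView array each. Per the labels, the deposited values are linear intensities per probe set, and the submitters' processing notes name GCOS version 1.4. The sources used here do not give the background correction, summarisation, normalization or genome build. The authors' intensity values were used as deposited, and log2 ratios to the control array were computed from them with Python 3.11.15, numpy 2.4.6, pandas 2.3.3 and matplotlib 3.10.9.

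Of 49293 probe sets, 45064 have 1 gene symbol in the platform annotation, 1756 several and 2473 none, and the last 2 kinds were left out of the gene values. Probe sets with a mean log2 intensity at or above the median of all were kept (24647), and a gene's value is the median over its kept probe sets (11501 genes, 5678 of them with 1 probe set). The only measured error is the spread over probe sets (median SD 0.08 on the log2 scale), and with 1 array per condition the number of arrays limits the precision. Ratios of 1.5 and 2 describe size and are not tests. The calculation was tested on simulated data.

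Genes were named by rule: the 15 largest rises and falls among genes with 2 or more probe sets all past the ratio, the 5 largest each way with 1 probe set, WDR5 and 6 further genes that the study names, interferon genes, and up to 5 members each way in each of 39 lists. Other members were named for their role after their values were seen. The members and lists were chosen with earlier results of these data known, and 6 further lists were added after the values were seen. Alternatives changed scaling, filter, offset, probe set summary and ratio, and a filter on the si-WDR5-3 and control arrays was added after seeing the data. Promoters and miRNAs came from RefSeq tables (GRCh38.p14), and 9368 of the genes matched a promoter. Some genes are not analysed here.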

Additional observations from a re-analysis of the deposited data

Results flagged for a closer look

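With 1 array per siRNA and a shared control array, the difference between the siRNAs was not tested for any gene below. Over all genes, 22 were past the ratio of 1.5 in opposite directions with si-WDR5-2 and si-WDR5-3, and 20 of these were higher with si-WDR5-2. Each stands out because its ratios lie on opposite sides. The 20 with a rise for si-WDR5-2 but a fall for si-WDR5-3 were IFITM1 (0.469 times control with si-WDR5-3), BST2 (0.642), CCL5 (0.543), IFI27 (0.417), XAF1 (0.602), OAS1 (0.621), IFIT1 (0.664), IFIT2 (0.604), IFIT3 (0.436), CMPK2 (0.597), OASL (0.612), IFIH1 (0.614), ISG15 (0.473), IFI6 (0.444), PARP12 (0.610), PLSCR1 (0.542), PNPT1 (0.664), HLA-B (0.538), NFKBIZ (0.653) and HMOX1 (0.427). HMOX1, heme oxygenase 1, had 1778 with si-WDR5-2, 269.9 with si-WDR5-3 and 1026 with control siRNA. YAP1 went the other way, at 0.490 times control for si-WDR5-2, beside 1.54 times for si-WDR5-3, and so did SDC4, a syndecan, at 0.533 and 1.54 times.

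Probe sets outside the gene values had shares past the ratio near those of all genes (5.00% higher and 3.35% lower). Of 1106 kept probe sets with no gene symbol, 59 were higher with si-WDR5-2 (5.33%) and 28 lower (2.53%), and of 845 with several symbols 37 were higher (4.38%) and 31 lower (3.67%). Among those with several symbols the ratios reached from 0.277 to 7.42 times control.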

How the results depend on the processing

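The count of higher genes, 575, was 373 with an offset added before log2 and 168 at a ratio of 2, and the count of lower genes, 385, was 235 and 77. Under the other alternatives the counts ran from 457 to 690 higher and from 283 to 453 lower. The log2 ratio of WDR5, -2.22, was -1.85 with the offset. The directions of 2 named genes turned: TNFRSF10B, a death receptor (0.595 times control), had a log2 ratio of 0.0155 with no filter and with the filter at the 25th percentile, and H2BC21 (1.90 times) had -0.0232 with no filter. The cause was not tested. Of 156 named genes past the ratio, 131 to 154 stayed past it, as did 127 of the 127 measured under the strictest filter and 150 of the 151 measured with the filter on the si-WDR5-3 and control arrays, a choice made after seeing the data (548 higher and 386 lower genes). The median of the effectors ran from 1.32 to 1.59, whereas those of the ATF4 and mitosis lists no longer passed the ratio with no filter (0.41 and -0.58) or with the offset (0.49 and -0.55). With the probe set nearest to 1 the medians of the ATF4 and MHC class I lists were 0.41 and 0.53, and with the filter at the 25th percentile that of the ATF4 list was 0.58. Leaving out an array was not possible with 1 per condition. No paired analysis was possible because each condition has 1 array.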

Other observations

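Genes below the filter held further interferon-induced members. Of 6654 such genes 29 were higher with si-WDR5-2 and 4 lower. Above the filter, 575 of 11501 were higher (5.00%) and 385 lower (3.35%). The chemokine CXCL11, a ligand of CXCR3 as CXCL10 is, had 491 with si-WDR5-2, 55.5 with si-WDR5-3 and 61.7 with control siRNA in its brightest probe set, and 6.61 times control over 3 probe sets (1.15 to 7.95). TLR3, the endosomal sensor of double-stranded RNA, had 410.2 with si-WDR5-2, 78.4 with si-WDR5-3 and 87.1 with control siRNA, 4.71 times control. These genes were near the dim end on the si-WDR5-3 and control arrays, so their ratios depend on the background of the array. RTP4 was at 3.60 times, GBP3 at 2.41 times, TNFSF13B (the B cell factor BAFF) at 2.31 times and MX2 at 2.05 times. CA2, carbonic anhydrase 2, was lower at 0.345 times, with 92.0 with si-WDR5-2, 138 with si-WDR5-3 and 266 with control siRNA.

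The following groups were chosen after their values were seen and are described only. Among all genes above the filter 5.00% were higher and 3.35% lower. Of 19 cytosolic aminoacyl-tRNA synthetases, which charge tRNAs with amino acids, 5 were higher and 0 lower: AARS1 (2.39 times), CARS1 (1.86), WARS1 (1.80), GARS1 (1.75) and SARS1 (1.68). Of 11 APOL, BTN3A and APOBEC3 genes 6 were higher, led by APOL6 (2.42 times), and APOBEC3B, a cytidine deaminase, was lower at 0.646 times. Of 9 inflammasome genes 4 were higher, with CASP1 at 3.76 times and IFI16 at 3.62 times. CASP1 was at 1.95 times with its dim probe sets included, and it passed the filter through the si-WDR5-2 array alone. Of 8 genes of the cap-binding complex and its regulators 2 were lower, EIF4EBP2 (0.436 times) and EIF4B (0.64).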
